A study of Mus musculus with 4 samples.

Results

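The miRNAs described here are those of 4 precursors tied to the blood lineage, miR-142, miR-223, miR-150 and miR-342, in the main olfactory epithelium of the mouse nose. They were taken by name, any arm, from the first column of a table of 1167 miRNAs, which gave 9 rows. 2 of these rows, miR-142a-3p and miR-142b, carried the same values and are counted once below, which leaves 8 miRNAs. The study compared 2 libraries of wild-type mice with 2 libraries of AC3-/- mice, which lack adenylyl cyclase 3, the enzyme that turns an odour signal into cAMP in the sensory neurons of the nose. All were C57BL/6 males 3 months old, and the labels name no other allele or treatment. The labels do not tie the libraries to separate animals, so any p-value covers just the spread between 4 libraries, and that spread may be technical. Small RNA libraries do not measure the Adcy3 mRNA, so the genotype could not be checked.

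A miRNA is cut from a hairpin precursor as a 5p and a 3p arm, and it finds its target mRNAs mainly through its seed, bases 2 to 8. miR-142 is made in nearly all cells of the blood lineage. miR-223 is the characteristic miRNA of granulocytes and monocytes, miR-150 that of mature lymphocytes, and miR-342 lies in an intron of Evl, a gene of an actin regulator, and is found among others in B cells and dendritic cells. In an epithelium such as this one, these miRNAs are usually read as a trace of blood in the vessels and of resident immune cells. In bulk tissue fewer cells of a type and less of the miRNA per cell cannot be told apart.

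The mature sequences are given to show how the rows are related, and that the 8 matched rows have 8 different seeds. They were matched by name in RefSeq (GRCm38.p6) for 8 of the 9 rows. mmu-miR-150-5p is named only. The mouse prefix mmu- is left out elsewhere. Capitals mark the seed.
mmu-miR-142a-3p: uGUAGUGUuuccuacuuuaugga
mmu-miR-142a-5p: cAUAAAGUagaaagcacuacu
mmu-miR-142b: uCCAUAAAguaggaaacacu
mmu-miR-223-3p: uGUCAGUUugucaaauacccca
mmu-miR-223-5p: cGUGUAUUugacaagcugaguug
mmu-miR-150-3p: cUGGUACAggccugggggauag
mmu-miR-342-3p: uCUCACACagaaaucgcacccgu
mmu-miR-342-5p: aGGGGUGCuaucugugauugag
No other mature mouse miRNA of the RefSeq table had any of these 8 seeds.

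The genes lie on 4 chromosomes of GRCm38. Mir142 lies on the plus strand at chr11:87756864-87756927, within an intron of the noncoding gene Mir142hg (GENCODE M21). Mir223 lies on the plus strand at chrX:96242817-96242926, in an exon of the noncoding gene F630028O10Rik. Mir342 lies on the plus strand at chr12:108658620-108658718, in an intron of Evl. Mir150 lies at chr7:45121757-45121821, outside other annotated genes.

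The equal rows of miR-142a-3p and miR-142b come from opposite strands of one place. Mir142b is annotated on the minus strand at chr11:87756841-87756955 and so spans the whole of Mir142. The hairpin of Mir142 is printed with its mature arms in capitals, and under it miR-142a-3p with the bases that pair with miR-142b in capitals.
Mir142 hairpin: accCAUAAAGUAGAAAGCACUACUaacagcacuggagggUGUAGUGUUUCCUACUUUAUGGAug
miR-142a-3p paired with miR-142b: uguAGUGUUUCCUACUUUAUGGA
All 20 bases of miR-142b are the reverse complement of bases 4 to 23 of miR-142a-3p, counted from its 5′ end. miR-142b is also close to the other arm: over 18 aligned bases it matches miR-142a-5p at 16, with A11G and G14A as the substitutions, positions counted from the 5′ end of miR-142a-5p with its base first. The row of miR-142b nevertheless had the reads of miR-142a-3p and not those of miR-142a-5p, namely 7690 and 9179 reads in the AC3-/- libraries (a, then b, here and below) and 6179 and 1626 in the wild-type libraries. A read of one strand does not carry the sequence of the other, so the 2 rows give a single measurement, and these data do not give a level of miR-142b of its own.

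The values of single libraries were worked back from the deposited genotype means, since each mean is a sum of whole reads in 2 steps. All 9 rows had a single solution. The wild-type libraries stood further apart than the AC3-/- pair. Across the 447 miRNAs of mean 10 or more, the log2 ratios of b over a had an SD of 1.11 in wild type and 0.57 in AC3-/-. This spread does not tell which wild-type library is the unusual one, so results are also given with each library left out. The letters a and b only name the libraries of a genotype and carry no replicate number. Library preparation captures some sequences better than others, so a miRNA is best compared with itself across libraries and not with another miRNA. By deposited mean, miR-142a-3p took rank 67 in AC3-/- and 91 in wild type, and the scarcest, miR-150-3p, took ranks 470 and 575. The 8 miRNAs made up 0.19% of the summed means in AC3-/- and 0.0933% in wild type. The summed means of all rows were themselves 1.41-fold higher in wild type, so part of the difference between these shares lies in the denominator.

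No member passed the adjusted p of 0.05 in the authors' deposited table (0 of 8), where 1 of 1167 rows, 0.0857%, did so. At an unadjusted p under 0.05 the count was again 0 of 8, beside 3.51% of all rows. Of the log2 fold changes (AC3-/- over wild type, shrunken toward 0) in the authors' deposited table, those of 7 of 8 members lay above 0, beside 49.5% of all rows. The median was 0.25 over the members and -0.0075 over all rows. With 2 libraries a genotype, the reads of the single libraries show what lies behind these means, and they are given below by lineage.

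miR-142a-3p, the pan-leukocyte member, had 6699 and 8355 normalised reads in the AC3-/- libraries and 6566 and 1901 in the wild-type libraries. Both AC3-/- libraries lay above both wild-type ones, but AC3-/- library a and wild-type library a were nearly level, and wild-type library b alone was low. The deposited means of 7527 and 4234 differed 1.78-fold (log2 fold change 0.56 and adjusted p = 0.94 in the authors' deposited table). The mean of the AC3-/- libraries was 1.15-fold that of wild-type library a and 3.96-fold that of library b.

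miR-142a-5p, the other arm of the same hairpin, had 4607.5 and 5492 normalised reads in AC3-/- and 6519 and 2266 in wild type. Here wild-type library a was the highest of the 4 and library b the lowest, so the genotypes overlapped. Its deposited means of 5050 and 4393 differed 1.15-fold (adjusted p = 0.976 in the authors' deposited table).

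The balance of the arms of miR-142a was compared within each library. The 3p values are those that the row of miR-142b also carries, and the strand of these reads was not tested. The ratio of the 3p to the 5p arm within a library was 1.45 and 1.52 in the AC3-/- libraries and 1.01 and 0.839 in the wild-type ones. In this and all later ratios within a library, 1 was added to each normalised value. The genotypes did not overlap, and the log2 ratio was higher by 0.69 in AC3-/-, against a gap of 0.26 between the wild-type libraries. An exact permutation test of 2 libraries against 2, two-sided, gave p = 0.333, the smallest that this design allows. The 3p to 5p ratio was taken for 114 hairpins with both arms at a mean of at least 10 normalised reads. For 18.4% it lay higher in both AC3-/- libraries than in both wild-type ones, and for 38.6% it did not overlap in either direction. Among the 114, miR-142a ranked 9 by the upward difference and 16 by the size of the difference in either direction.

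miR-223-3p, the myeloid member, had 632 and 738 normalised reads in AC3-/- and 1079 and 214 in wild type. The AC3-/- libraries were close to each other and lay between the wild-type libraries, which were 5.04-fold apart. The deposited means, 685.3 and 646.3, were nearly equal (log2 fold change 0.05 and adjusted p = 0.979 in the authors' deposited table). Its other arm, miR-223-5p, showed the same order at a lower level, with 125 and 133 against 272 and 31.6 normalised reads. Its wild-type libraries were 8.62-fold apart, the widest gap of the 8 miRNAs, and its deposited means were 128.7 and 151.8 (adjusted p = 0.979 in the authors' deposited table). It was the only member below 0 there, at -0.12. The summed means differ by 0.496 on the log2 scale, higher in wild type, so dividing each genotype by its sum raises every miRNA alike by that much in AC3-/-. The log2 ratio of the deposited means of miR-223-5p then goes from -0.24 to 0.26, as any value this close below 0 must, which is no property of miR-223-5p.

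miR-150-5p, the lymphoid member, had 899.9 and 1298 normalised reads in AC3-/- and 1107 and 474 in wild type. Wild-type library a lay between the AC3-/- libraries and library b was again lowest, 2.34-fold under its partner. The deposited means were 1099 and 790.4, a 1.39-fold difference (log2 fold change 0.35 and adjusted p = 0.94 in the authors' deposited table). Its other arm, miR-150-3p, rested on few reads, 12 and 16 in AC3-/- and 3 and 6 in wild type. These reads stand for 10.5 and 14.6 against 3.19 and 7.02 normalised reads, with exact 95% Poisson intervals, for counting error only, of 5.4 to 18.3 and 8.32 to 23.7 in AC3-/- and 0.657 to 9.32 and 2.57 to 15.3 in wild type. Both AC3-/- libraries lay higher, and the intervals of the 2 genotypes overlapped.

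miR-342-3p had 1578 and 2474 normalised reads in AC3-/- and 1308 and 1172 in wild type. It was the member whose wild-type libraries were closest, 1.12-fold apart, and both AC3-/- libraries lay above both of them. The deposited means of 2026 and 1240 differed 1.63-fold, with a log2 fold change of 0.61, p = 0.0867 and adjusted p = 0.94 in the authors' deposited table. Its p was the smallest of the 8 members and ranked 65 of 1167. The AC3-/- libraries were themselves 1.57-fold apart, and the mean of the AC3-/- libraries was 1.55-fold wild-type library a and 1.73-fold library b. The minor arm miR-342-5p did not show the same order, with 35.7 and 29.1 normalised reads in AC3-/- and 21.3 and 43.3 in wild type, from 20 to 41 reads a library. Wild-type library b was its highest library, and the deposited means were 32.42 and 32.26.

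**Figure D1:**
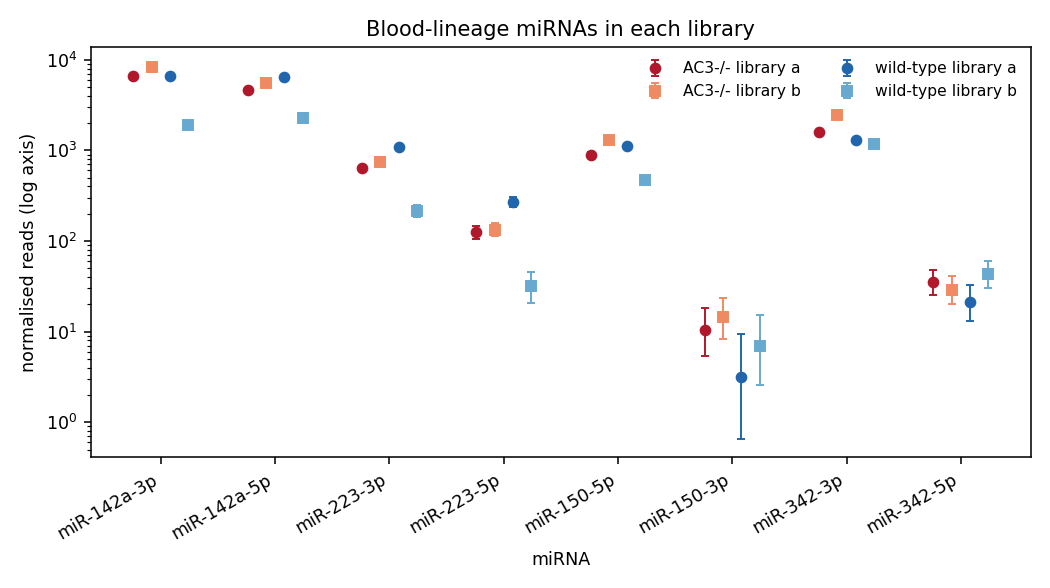
Normalised reads (log axis) of the 8 miRNAs in the 4 libraries; points are single libraries and bars are exact 95% Poisson intervals for counting error only, often smaller than the point. Wild-type library b is the lowest library for both arms of miR-142a and miR-223, for miR-150-5p and, by a small margin, for miR-342-3p.

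By deposited mean the order of the levels was miR-142a-3p, miR-142a-5p, miR-342-3p, miR-150-5p, miR-223-3p, miR-223-5p, miR-342-5p and miR-150-3p in AC3-/-. In wild type the arms of miR-142a changed places, with 4234 for the 3p arm and 4393 for the 5p arm, and the rest of the order was the same. The range over the 4 libraries of each miRNA overlapped that of its neighbour in this order, with 1 exception. The lowest library of miR-342-5p, with 21.3 normalised reads, lay above the highest of miR-150-3p, with 14.6. Within each single library the order from miR-142a-5p to miR-223-5p held, while in wild-type library b miR-342-5p lay above miR-223-5p.

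limma on log2(normalised reads + 1) of the 4 libraries, fitted over 447 miRNAs of mean 10 or more, put no member past an adjusted p of 0.05. 7 of the 8 members entered it, and miR-150-3p was too low. With Benjamini-Hochberg adjustment 0 of the 7 passed, and 0% of the 447 did. At an unadjusted p under 0.05 limma also gave 0 of 7, beside 3.58% of all. The difference lay above 0 for all 7 members, with a median of 0.51, while 49.4% of the 447 lay above 0 with a median of -0.0071. miR-142a-3p differed by 1.08 on the log2 scale (standard error 0.59, adjusted p = 0.933, limma). miR-342-3p differed by 0.67 (standard error 0.35, adjusted p = 0.933, limma), the smallest error among the members. For miR-223-3p and miR-223-5p the differences were 0.51 and 0.46 with standard errors of 0.78 and 0.98, so the error was larger than the difference. A mean of logs weighs the low wild-type library b more than a mean of reads does, and for miR-223-5p the sign of the 2 measures differs.

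Both AC3-/- libraries lay above both wild-type libraries for 2 of the 7 members of mean 10 or more, miR-142a-3p and miR-342-3p, beside 16.8% of the 447 miRNAs. miR-150-3p, below that mean, also had both AC3-/- libraries higher.

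Wild-type library b was the lowest of the 4 libraries for 6 of the 7 members of mean 10 or more, beside 33.6% of the 447 miRNAs. It lay at least 2-fold below wild-type library a for 5 of the 7, both arms of miR-142a, both arms of miR-223 and miR-150-5p, beside 11.9% of the 447 miRNAs. The log2 ratio of library b over library a was -3.07 for miR-223-5p, -2.33 for miR-223-3p, -1.79 for miR-142a-3p, -1.52 for miR-142a-5p and -1.22 for miR-150-5p. These took ranks 6, 10, 20, 28 and 42 from the lowest of 447, while miR-342-3p, at -0.16, took rank 183. miR-342-5p went the other way, at 0.99, from 20 and 37 reads. Between the AC3-/- libraries none of the 7 members was 2-fold apart (0 of 7, beside 5.82% of the 447), and their log2 ratios ran from -0.29 to 0.65. Relative to wild-type library a, the members did not keep a fixed proportion in library b. The myeloid miR-223 was lowest, miR-142a and miR-150-5p came next and miR-342-3p was nearly level. This order depends on the reference. The mean of the AC3-/- libraries was 4.08-fold wild-type library b for miR-223-5p, 3.96-fold for miR-142a-3p and 3.20-fold for miR-223-3p. It was 2.32-fold for miR-150-5p, 2.23-fold for miR-142a-5p, 1.73-fold for miR-342-3p and 0.749-fold for miR-342-5p.

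**Figure D2:**
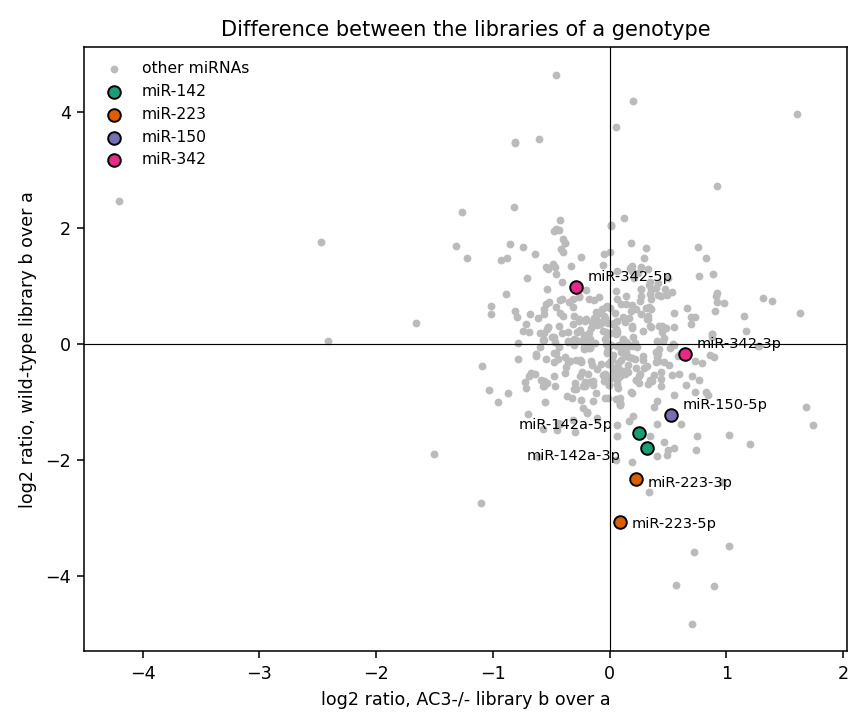
Log2 ratio of library b over library a in AC3-/- (horizontal axis) and in wild type (vertical axis) for 447 miRNAs; each point is a miRNA, the members are coloured by precursor, and the letters of the 2 genotypes are not paired. Members of miR-142, miR-223 and miR-150 lie between -3.07 and -1.22 on the vertical axis, and those of miR-342 at -0.16 and 0.99.

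Without wild-type library b the difference lay above 0 for 3 of the 7 members, miR-142a-3p at 0.19, miR-342-3p at 0.59 and miR-342-5p at 0.58. It was then -0.37 for miR-142a-5p, -0.66 for miR-223-3p, -1.07 for miR-223-5p and -0.03 for miR-150-5p, and none passed the adjusted p of limma, beside 0.224% of the 447. Without wild-type library a, with the lone library b assumed to vary like the AC3-/- pair, 5 of the 7 passed the adjusted p of limma, beside 14.5% of the 447: miR-142a-3p at 1.98, miR-142a-5p at 1.15, miR-223-3p at 1.67, miR-223-5p at 1.99 and miR-150-5p at 1.19. miR-342-3p stayed between 0.35 and 1.00 whichever library was left out, and did not pass in any of these fits.

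**Figure D3:**
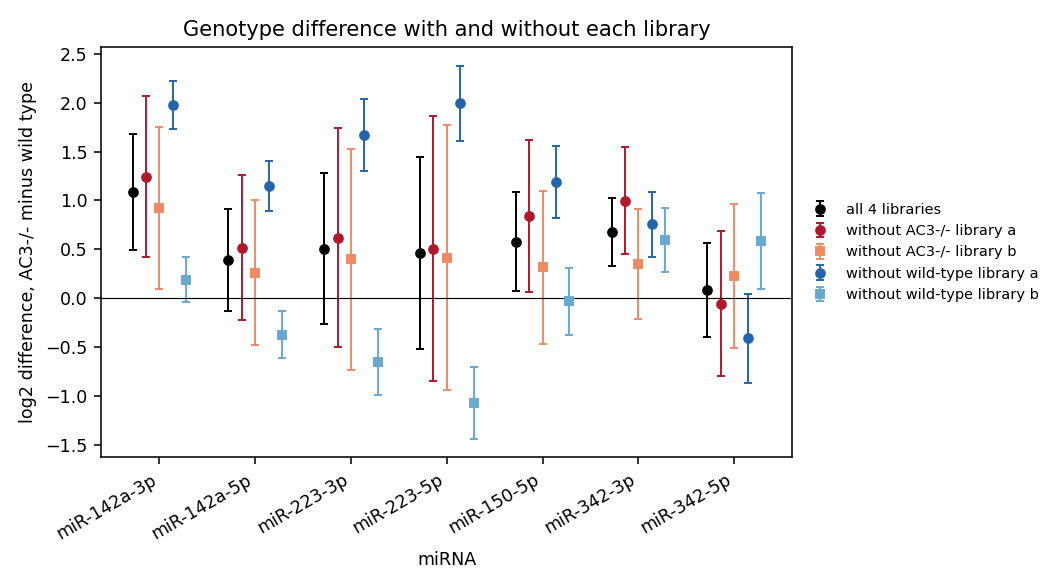
Log2 difference of AC3-/- minus wild type by limma for 7 miRNAs (mean of 10 or more), with all 4 libraries and with each left out; bars are the standard error. For miR-223-5p the value runs from -1.07 without wild-type library b to 1.99 without library a, and for miR-342-3p from 0.35 to 1.00.

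The myeloid and the lymphoid member were compared within each library, which removes the scaling of the libraries. miR-223-3p over miR-150-5p was 0.703 and 0.569 in the AC3-/- libraries, and 0.974 and 0.453 in the wild-type ones. The AC3-/- ratios lay between the wild-type ones, so the genotypes overlapped. The mean log2 ratio was -0.66 in AC3-/- and -0.59 in wild type, a difference of -0.07 beside a gap of 1.10 between the wild-type libraries (exact permutation test, two-sided, p = 1, smallest possible 0.333). No shift between the myeloid and lymphoid member was detectable with 2 libraries a genotype. With all arms of each summed, the difference was -0.09, and with miR-342-3p in place of miR-150-5p it was -0.17.

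Against miR-142a-3p the myeloid and the lymphoid member were lower in AC3-/- without overlap, which was also the case for 49.4% of 445 other miRNAs of mean 10 or more, these members included. The denominator miR-142a-3p was itself higher in both AC3-/- libraries, though nearly level in AC3-/- library a and wild-type library a. What each miRNA adds to these ratios was not tested, and nothing particular to miR-223-3p or miR-150-5p is read from them. miR-223-3p over miR-142a-3p was 0.0945 and 0.0885 in AC3-/- and 0.164 and 0.113 in wild type. miR-150-5p over miR-142a-3p was 0.134 and 0.155 in AC3-/- and 0.169 and 0.249 in wild type. The log2 differences were -0.58 and -0.51, about as large as the gaps of 0.54 and 0.56 between the wild-type libraries, and each exact permutation test gave p = 0.333, the smallest possible. miR-342-3p over miR-142a-3p was 0.236 and 0.296 in AC3-/- and 0.199 and 0.616 in wild type, and overlapped. These 3 ratios share the denominator miR-142a-3p. In all, 9 ratios between members or arms were compared in this way, and the smallest exact permutation p after Benjamini-Hochberg adjustment over them was 1.

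**Figure D4:**
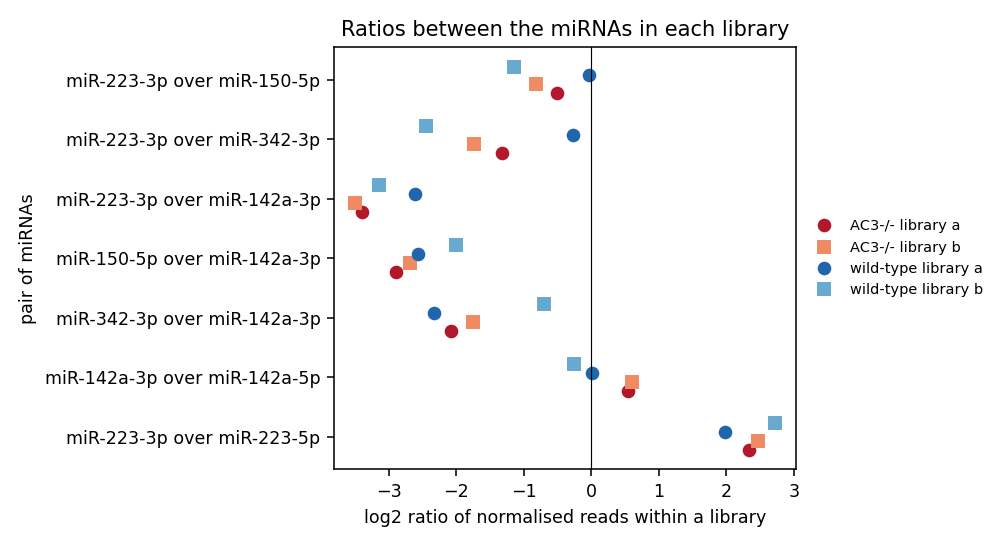
Log2 ratio of normalised reads, with 1 added to each, between 2 members or 2 arms within each library. Each point is a library. For miR-142a-3p over miR-142a-5p the AC3-/- libraries, at 0.54 and 0.61, lie to the right of the wild-type libraries, at 0.01 and -0.25, and for miR-223-3p over miR-150-5p they lie between them.

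The other arm ratios overlapped between genotypes. The 3p arm of miR-223 held 5.04 and 5.52 times the reads of its 5p arm in AC3-/- and 3.95 and 6.6 times in wild type. For miR-342 the 3p to 5p ratio was 43 and 82.2 in AC3-/- and 58.8 and 26.5 in wild type, with the 5p arm at 20 to 41 reads. For miR-150 the main arm is 5p, and its ratio to the 3p arm was 78.7 and 83.5 in AC3-/- and 265 and 59.2 in wild type. The 265 rests on 3 reads of the minor arm, and of these ratios the added 1 lowers it most. So miR-223, miR-150 and miR-342 had a clear main arm, while the arms of miR-142a were read at similar levels.

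Among 244 other miRNAs of mean 100 or more, the pattern most like that of miR-142a-3p over the 4 libraries was that of miR-155-5p, a miRNA of activated immune cells. Likeness was the Euclidean distance between centred log2(normalised reads + 1) values over 4 libraries, which share scaling and depth, and it is a description. miR-155-5p lay at a distance of 0.19, with 1277 and 1799 normalised reads in AC3-/- and 1283 and 341 in wild type. miR-10a-5p, at a distance of 0.20, had 7311 and 9291 against 7357 and 2465. The next, miR-344-3p, miR-34b-5p and miR-92b-5p, were much farther, at 0.71, 0.72 and 0.76. The first of these nearest miRNAs is an immune one, and the second lies in a Hox cluster. Which cells carry either of them in this tissue was not tested.

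The nearest to miR-150-5p were miR-92b-5p, miR-27a-5p and miR-467a-5p, at distances of 0.21, 0.34 and 0.35. To miR-342-3p they were miR-139-5p, miR-574-5p and miR-135b-5p, at 0.28, 0.33 and 0.36. miR-139-5p had 2926 and 4769.7 normalised reads in AC3-/- and 2747 and 1883 in wild type, so both AC3-/- libraries again lay above both wild-type ones.

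**Figure D5:**
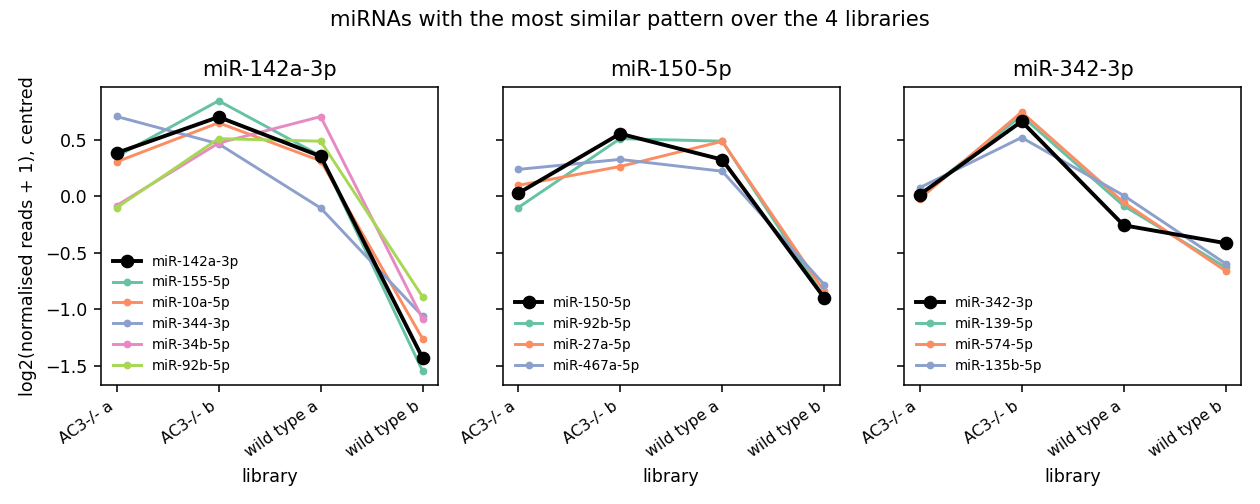
Centred log2(normalised reads + 1) of 3 members (black) and of the miRNAs nearest to each (coloured) over the 4 libraries; lines only join the points of a miRNA. miR-155-5p and miR-10a-5p follow miR-142a-3p within a distance of 0.20, and wild-type library b is the lowest point in each panel.

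Where library values could be had, other leukocyte miRNAs of mean 10 or more were also lower in wild-type library b than in library a. Of 8 such miRNAs in the table (both arms of miR-146a, miR-146b, miR-155 and miR-511), 7 had library values, which summed to 15520 and 14265 normalised reads in AC3-/- and 16881 and 7257 in wild type. miR-146a-3p, miR-155-3p and miR-511-5p were at 0 in at least 1 library. The most abundant of the list, miR-146a-5p, with deposited means of 201431 and 105973, had no library values and is not among these. The lower value in library b was seen for 5 of the 5 others of mean 10 or more, and the authors' deposited table gave 0 of the 8 an adjusted p under 0.05. Over all 447 miRNAs the median log2 ratio of wild-type library b over library a was 0.042. The counted rows of this and the next lists include both arms of some hairpins, so they are not independent. The red-cell miRNAs were lower there too, with 6 of 6 rows below library a. 3 of these rows, both arms of miR-486a together with miR-486b-3p, had nearly the same value in each library and are better read as 1 measurement. miR-451a, the most abundant of the red-cell miRNAs, had 5142 and 3981 normalised reads in AC3-/- and 4469 and 2424 in wild type. miR-126a-5p of endothelium had 2642 and 2808 against 3679 and 1776.

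Markers of the epithelium also differed between the wild-type libraries. The multiciliated list (miR-34b, miR-34c and miR-449 arms) had a median log2 ratio of library b over library a of -2.93, with 6 of 6 lower. The median over all 447 miRNAs was 0.042. The multiciliated list summed to 13869 and 26257 normalised reads in AC3-/- and 30648 and 5976 in wild type over 8 of 9 miRNAs, of which miR-449b and miR-449c-3p were at 0 in at least 1 library. Its most abundant miRNA, miR-34c-5p, had no library values and is not in this sum. The deposited means of miR-34c-5p were 230226 in AC3-/- and 225941 in wild type. The sensory list (miR-183 cluster and miR-200 family) had a median of 1.34, with 7 of 7 higher, and summed to 24649 and 27570.5 against 23570 and 61504 over 8 of 16 miRNAs, the most abundant being without library values. Of the neuronal miRNAs, miR-9-3p had 3788 and 3161 against 3424 and 6084, and miR-9-5p had no library values. miR-124-3p, the remaining one, was higher in both AC3-/- libraries, with 228 and 183 normalised reads in AC3-/- and 21.3 and 37.4 in wild type. It is the single row called in the authors' deposited table (log2 fold change 2.26, adjusted p = 1.59e-05), while limma on the library values gave a log2 difference of 2.81 with an adjusted p = 0.332. Of the sensory miRNAs with library values, miR-429-5p was at 0 in 1 library and the others were read in all 4. The part of all these lists in the low values of the members in wild-type library b was not tested.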

How the data were processed

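The authors deposited 1 table of 1167 miRNAs. Its 2 abundance columns hold a signal, the deposited mean per genotype of read counts divided by size factors, per the file headers and the values. It also gives the authors' log2 fold change, p-value and adjusted p-value. Bowtie, DESeq 1.8.3 and GRCm38 appear in the submitters' processing notes, without a role. Not given in the sources used here are the read counter, the miRBase release and any filter. Per the labels' protocols, RNA was extracted with Trizol and small RNA libraries were made by adaptor ligation, PCR and gel selection, with no molecular identifiers described.

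Whole reads per library were worked back once the table had been examined, for 1124 of 1167 rows in AC3-/- (96.3%) and 1128 in wild type (96.7%). Every row with several solutions had a mean above 22980. Size factors were 1.148 and 1.099 (AC3-/- libraries a and b) and 0.9411 and 0.8551 (wild type). The recovered rows hold 538747 to 694631 reads a library, not the full depth. The reads of a member set its counting error. Library values were tested with limma 3.58.1 (R 4.3.3, intensity trend, pseudocount 1, mean of at least 10). Recovery and fit were tested on simulated data with 4-fold changes and the same dispersion of 0.1 in all 4 libraries. All rows with a single solution were recovered with the right reads. limma at an adjusted p under 0.05 called 168 of 190 changed miRNAs and 2 unchanged ones. The simulation did not include the wider spread of the wild-type pair, so it does not show how often limma would call such changes here. Ratios within a library, and log2 ratios between libraries, were taken after adding 1 to each normalised value. Ratios within a library used exact permutation tests (scipy 1.17.1). The members, lists and named miRNAs (members, nearest patterns, up to 3 per list) were chosen with earlier results of these data known, and the arm ratios and the scaling by summed means after their values were seen.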

Additional observations from a re-analysis of the deposited data

How the results depend on the processing

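No paired analysis was possible because the deposited columns carry no replicate numbers. In 8 alternatives of pseudocount, filter, scaling and moderation, the 55 limma differences of members kept their direction and none passed, with adjusted p from 0.773 to 0.977. The scaling by recovered reads uses part of each library only. With each library left out in turn, members passing limma's adjusted p ran from 0 to 5, the 5 without wild-type library a, and members above 0 from 3 to 7. The log2 differences ran from -0.37 to 1.15 for miR-142a-5p, -0.66 to 1.67 for miR-223-3p, -1.07 to 1.99 for miR-223-5p, -0.035 to 1.19 for miR-150-5p and -0.41 to 0.58 for miR-342-5p. The difference in miR-223-3p over miR-150-5p ran from -0.62 to 0.48. The cause of these changes was not tested. Scaling by the summed means adds 0.496 to every miRNA alike and by this construction alone puts the log2 ratio of the deposited means of miR-223-5p at 0.26. Over all miRNAs, 1 passed the adjusted p in the authors' deposited table and 41 an unadjusted p under 0.05, and 0 passed in limma (16 at an unadjusted p under 0.05). Depth limits miR-150-3p and miR-342-5p, with 3 to 41 reads a library.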

Other observations

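The equal rows of miR-142a-3p and miR-142b had counterparts elsewhere in the table. 5 pairs of rows with both means at 10 or more carried identical values. 2 of them, miR-142a-3p with miR-142b and miR-338-3p with miR-3065-5p, were reverse complements of each other over at least 20 bases in RefSeq. The deposited means of the latter pair were 382.6 for AC3-/- and 477.8 for wild type, and it shared a run of 21 bases on opposite strands. For the other 3 pairs, miR-467a-3p with miR-467d-3p, miR-467a-5p with miR-467b-5p and miR-122-5p with miR-122b-3p, at least 1 row was not compared by sequence. Why the deposited table gives reads of one strand to both names was not tested.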
